A study of Mus musculus with 27 samples.

Results

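The 10 genes described here make bile acids or hold their synthesis in check in the mouse liver. They were chosen by name from the 21823 genes of the deposited table: Cyp7a1 and Cyp8b1 of the classic pathway of synthesis, Cyp27a1 and Cyp7b1 of the alternative pathway, Slc27a5 and Baat, which conjugate bile acids, Nr1h4 and Nr0b2, which encode the nuclear receptors FXR and SHP, and Fgfr4 and Klb, which encode the hepatocyte receptor for the gut hormone FGF15 and its co-receptor. All 10 carry a symbol that no other gene of the table shares. All 10 also had an FPKM (the number of reads scaled to transcript length and to the mapped reads of the library) of at least 1 in at least 3 libraries, as did 12952 genes in all, which were the genes tested. RNA was sequenced from 3 lobular zones that had been cut out of frozen liver sections by laser microdissection, with 2 mm2 of tissue per zone. The mice were wild-type C57BL/6 females (C57BL/6N in the study's methods), 8 to 14 weeks old and virgin before mating, with no transgene or drug in any group. The stages are NP, for mice that were not pregnant, and days 8 and 16 post coitum, written dpc8 and dpc16, and each of the 9 combinations of stage and zone has 3 libraries, 27 in all. Zone 1 lies around the portal vein, zone 3 around the central vein and zone 2 between them. The labels number the libraries of each group from 1 to 3 and do not say which mouse a library came from. Libraries of the same number may share a mouse, in which case p-values for means over zones are too small, and p-values measure the spread between these libraries only.

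Bile acids are made from cholesterol in hepatocytes. Cyp7a1 starts the classic pathway and limits its rate, and Cyp8b1 directs its products to cholic acid. Cyp27a1 oxidises the sterol side chain and Cyp7b1 hydroxylates oxysterols in the alternative pathway. Slc27a5 activates bile acids with coenzyme A, and Baat joins them to taurine or glycine. Bile acids that return to the liver bind FXR, which raises SHP, a repressor of Cyp7a1 and Cyp8b1. FGF15, released by the ileum, reaches the same enzymes through Fgfr4 with Klb. Synthesis is known to be concentrated in hepatocytes near the central vein.

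Promoter sequence of Nr0b2 and Cyp8b1 is shown because these genes, together with Cyp7a1, carry the differences between libraries of one group described further down, and because both are known targets of the nuclear receptor Nr5a2 (LRH-1). The sequences are RefSeq windows on build GRCm38.p6 and cover the 250 bases before the RefSeq start, 5′ to 3′ on the gene's strand. For Nr0b2 and Cyp8b1 this start is also that of the GENCODE gene whose position is given further down. Windows were found for 6 of the 10 genes (Cyp8b1, Cyp27a1, Nr1h4, Nr0b2, Fgfr4 and Klb). By the GENCODE positions the Nr1h4 window lies inside the gene, those of Fgfr4 and Klb run into it, and that of Cyp27a1 ends short of its start. Capitals mark the letters TCAAGG or CCAAGG, both forms of the core that NR5A receptors bind.
Nr0b2 (chr4:133553126-133553375, plus strand): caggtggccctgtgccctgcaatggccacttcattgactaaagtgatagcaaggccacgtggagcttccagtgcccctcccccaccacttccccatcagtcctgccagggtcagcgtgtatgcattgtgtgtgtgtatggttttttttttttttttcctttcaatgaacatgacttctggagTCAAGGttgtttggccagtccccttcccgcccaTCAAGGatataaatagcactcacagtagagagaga
Cyp8b1 (chr9:121916306-121916555, minus strand): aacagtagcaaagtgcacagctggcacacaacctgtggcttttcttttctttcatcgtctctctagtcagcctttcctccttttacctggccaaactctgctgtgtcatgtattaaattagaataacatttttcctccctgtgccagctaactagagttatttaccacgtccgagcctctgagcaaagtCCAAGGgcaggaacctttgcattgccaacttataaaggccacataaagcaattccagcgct
The Nr0b2 window holds TCAAGG at bases -68 to -63 and again at -35 to -30, counted back from the RefSeq start. The Cyp8b1 window holds CCAAGG once, at -61 to -56. The search covered both strands, and 28.34% of 32851 mouse promoter windows hold at least 1 of these cores, so that a match is common. The nuclear receptor hexamer AGGTCA was found in the Nr1h4 window only, on the strand opposite to the gene, against 14.02% of all windows, and its inverted repeat with 1 base between (AGGTCANTGACCT) was found in none of the 6. These matches describe letters, and no binding was measured.

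The table gives no read counts. The steps between low FPKM values correspond to about 7560000 to 33940000 reads per library, and 1 read on a transcript of 1 kilobase was worth 0.0295 to 0.132 FPKM, far below nearly all values of the 10 genes. The zones carried their markers: the summed FPKM of 7 pericentral genes (Glul, Cyp2e1 and others) was 241 to 462 in zone 1 and 6692 to 18076 in zone 3, and that of 7 periportal genes was 2620 to 4942 in zone 1 and 135 to 1648 in zone 3. All 6 hepatocyte markers were above 0 in all 27 libraries. In 6 libraries (replicate 1 of zone 1 in NP and at dpc8, replicate 2 of zone 3 in NP and of zone 2 at dpc8, and replicate 3 of zones 2 and 3 at dpc16) 4 genes of the Y chromosome summed to 7.92 to 23.2 FPKM, against at most 2.97 in the other 21, although all mice are labelled female. The same 6 libraries summed to 916 to 4917 FPKM over 10 connective tissue and smooth muscle genes, against 21.2 to 546 elsewhere. The results are therefore also given without these 6 libraries. Bulk RNA cannot tell fewer cells of a type from less RNA per cell.

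**Figure D1:**
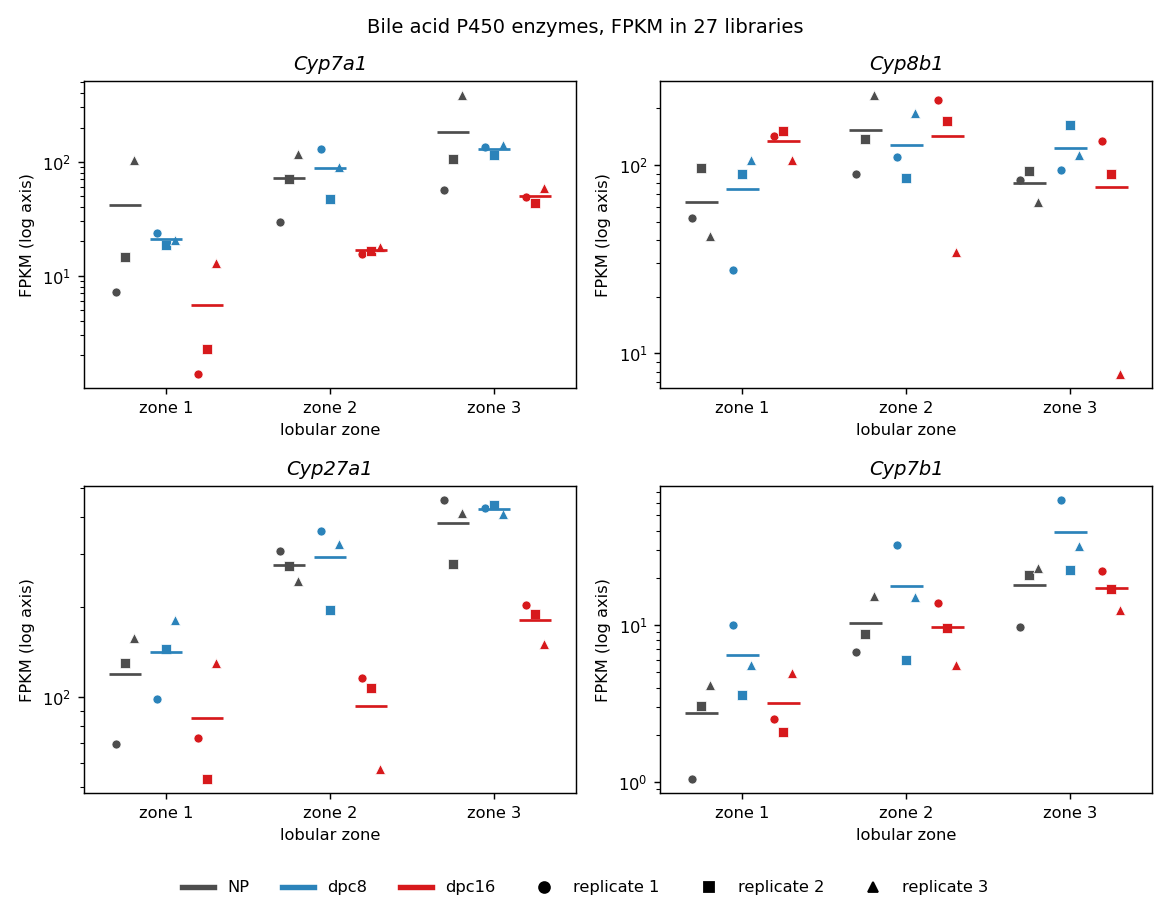
FPKM of Cyp7a1, Cyp8b1, Cyp27a1 and Cyp7b1 (vertical log axes) in each of the 27 libraries by lobular zone (horizontal axis), with colours for stage, symbols for replicate number and a line at the mean of each group of 3. Cyp7a1, Cyp27a1 and Cyp7b1 climb from zone 1 to zone 3 at each stage, while Cyp8b1 has no such slope.

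Zonation answers where in the lobule the pathway is expressed. Of the 4 P450 genes 3, Cyp7a1, Cyp27a1 and Cyp7b1, were lower in zone 1 than in zone 3 on the mean of the stages, by 7.11-fold, 2.84-fold and 4.91-fold. The other 7 members did not pass the threshold, and none was higher in zone 1. In this comparison 2.89% of the genes tested were lower in zone 1 by limma at an adjusted p under 0.05.

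Cyp7a1 (chr4:6265612-6275633, minus strand, build GRCm38 as are all positions here) spanned the widest range of the 10 in relative terms, from 1.35 to 386 FPKM. In NP its FPKM was 7.16, 14.6 and 103 in the zone 1 libraries (replicates 1, 2 and 3), 29.8, 70.5 and 117 in zone 2, and 56.5, 105 and 386 in zone 3. Replicate 3 was the highest in all 3 zones of NP, and zones 1 and 3 overlapped. At dpc8 zone 1 held 23.6, 18.7 and 20.6 FPKM and zone 3 held 134, 114 and 141, with no overlap. At dpc16 the values were 1.35, 2.24 and 12.9 in zone 1, 15.5, 16.6 and 17.8 in zone 2, and 48.6, 43.0 and 59.2 in zone 3, so that the zones stood in order without overlap. The log2 difference of zone 1 from zone 3, on the log2(FPKM + 1) scale, was -2.49 ± 0.76 (SE, n = 3 and 3) in NP, -2.57 ± 0.76 at dpc8 and -3.43 ± 0.76 at dpc16. By limma the adjusted p was 0.16 in NP, 0.10 at dpc8 and 0.015 at dpc16, where the difference passed. In fits with the replicate number as a block, given at the end, it also passed in NP and at dpc8. The check of that pairing did not hold at these stages. On the mean of the stages the difference was -2.83 ± 0.44 (limma adjusted p = 0.00013).

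Cyp27a1 (chr1:74713574-74737892, plus strand) had a higher mean FPKM than Cyp7a1 in all 9 groups. Its mean FPKM in zones 1, 2 and 3 was 119 ± 45.2, 276 ± 31.3 and 382 ± 93.1 in NP (SD, n = 3 each). At dpc8 the means were 142 ± 41.5, 294 ± 86.7 and 427 ± 15.4 in the same order. At dpc16 the FPKM was 72.7, 53.0 and 130.03 in zone 1 and 203, 190.3 and 150.2 in zone 3. Zones 1 and 3 did not overlap at any stage. Of the 10 members, 2 were lower in zone 1 without overlap in NP, 5 at dpc8 and 3 at dpc16, where 6.05%, 10.5% and 6.39% of genes were. The log2 difference of zone 1 from zone 3 passed in NP (-1.72 ± 0.35, limma adjusted p = 0.0088) and at dpc8 (-1.63 ± 0.35, adjusted p = 0.014) but not at dpc16 (-1.17 ± 0.35, adjusted p = 0.13), where the call was made without the 6 libraries (-1.30, adjusted p = 0.0074).

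Cyp7b1 (chr3:18071950-18243338, minus strand) had the lowest mean FPKM of the 4 P450 genes in all 9 groups, although in zone 1 at dpc16 its mean of 3.20 ± 1.54 lay within the spread of Cyp7a1 (5.49 ± 6.41, SD, n = 3). In NP its FPKM was 1.04, 3.03 and 4.16 in zone 1 and 9.73, 20.9 and 23.1 in zone 3. At dpc8 zone 1 had 10.02, 3.60 and 5.60 and zone 3 had 62.7, 22.3 and 31.7. At dpc16 zone 1 had 2.54, 2.09 and 4.96 and zone 3 had 22.0, 17.1 and 12.5. Every zone 1 library was below every zone 3 library of its stage. The gene passed at all 3 stages, with log2 differences of -2.35 ± 0.52 (limma adjusted p = 0.018), -2.39 ± 0.52 (0.015) and -2.14 ± 0.52 (0.031), and it also passed between zones 1 and 2 on the mean of the stages (-1.37 ± 0.30, adjusted p = 0.023, where 0.409% of genes were lower). Without the 6 libraries its NP difference was -1.82 and no longer passed (adjusted p = 0.11). With only the groups compared the gene did not pass in NP (adjusted p = 0.12) or at dpc8 (0.066), and under quantile normalization it did not pass at dpc16 (0.10).

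Cyp8b1 (chr9:121914356-121916305, minus strand), which acts after Cyp7a1 in the classic pathway, did not share this slope. Its FPKM in NP was 52.3, 96.4 and 42.1 in zone 1, 89.9, 137 and 235 in zone 2, and 83.4, 93.1 and 63.2 in zone 3. At dpc8 the zones overlapped, between 27.8 and 189. At dpc16 zone 1 held 142, 152 and 107 FPKM and zone 3 held 133, 89.4 and 7.72, with the lowest value in replicate 3, a library that stood apart. The log2 difference of zone 1 from zone 3 on the mean of the stages was 0.07 with a 95% confidence interval from -0.84 to 0.98.

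At single stages, 2 of the 10 members were called lower in zone 1 in NP, 2 at dpc8 and 2 at dpc16, where 0.811%, 0.926% and 0.772% of all genes were. These counts rest on 3 libraries a group. For NP the Cyp27a1 call was lost without zone 1 replicate 1 or without zone 3 replicate 1 or 3 (limma adjusted p = 0.054 to 0.092), and the Cyp7b1 call without zone 1 replicate 1 or zone 3 replicate 2 or 3 (0.095 to 0.15). For dpc8 the Cyp27a1 call was lost without zone 1 replicate 1 or any zone 3 library (0.053 to 0.11), and the Cyp7b1 call without zone 1 replicate 2 or 3 or zone 3 replicate 1 or 3 (0.0502 to 0.11). For dpc16 the Cyp7a1 call was lost without zone 1 replicate 1 or 2 or zone 3 replicate 1 or 3 (0.057 to 0.12), and the Cyp7b1 call without zone 1 replicate 1 or 2 or zone 3 replicate 1 or 2 (0.11 to 0.18). The Cyp7b1 call between zones 1 and 2 was lost in 7 of 18 such fits, without replicate 1 of zone 1 or replicate 3 of zone 2 in NP, replicate 2 of zone 1 or replicate 1 of zone 2 at dpc8, or replicate 1 or 2 of zone 1 or replicate 1 of zone 2 at dpc16 (0.052 to 0.066). The 3 calls between zones 1 and 3 on the mean of the stages held in all 18 fits that left out 1 library and in all 10 other settings tried.

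Between zones 2 and 3, limma called 0 of the 10 members on the mean of the stages, where 1.88% of genes were called in either direction. At an unadjusted p under 0.05 the same 3 genes, Cyp7a1, Cyp27a1 and Cyp7b1, passed there, as did 10% of all genes. The log2 difference of zone 2 from zone 3 was -1.08 ± 0.44 for Cyp7a1. With libraries of one stage and number as a block, Cyp7a1 and Cyp7b1 were called here, as given at the end (1.89% of genes lower).

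**Figure D2:**
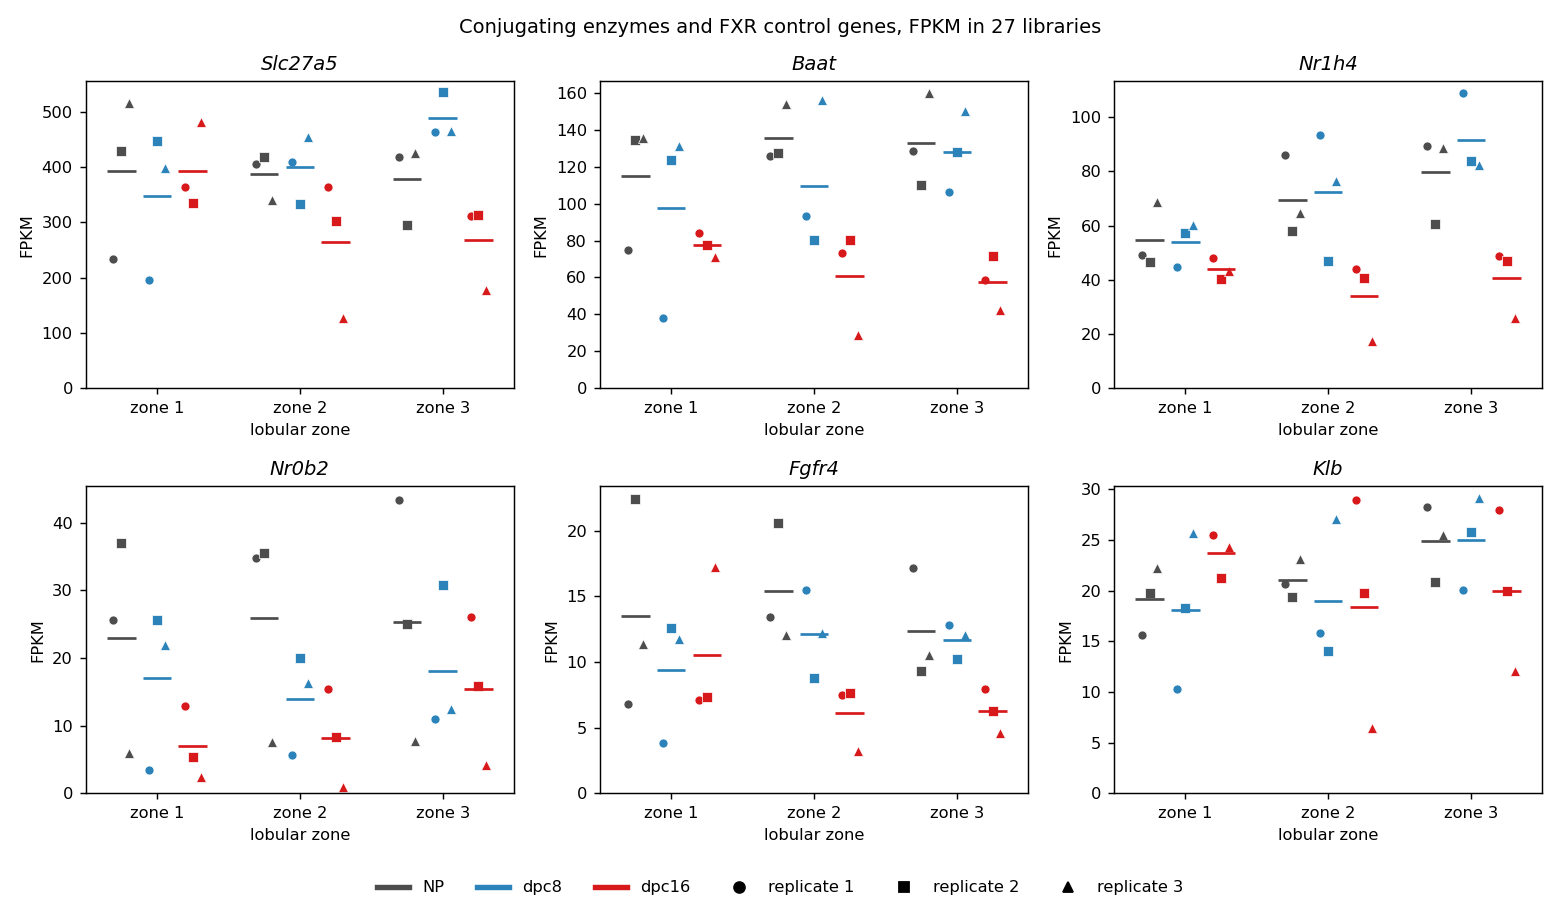
FPKM of Slc27a5, Baat, Nr1h4, Nr0b2, Fgfr4 and Klb (vertical axes from 0) in each of the 27 libraries by lobular zone (horizontal axis), with colours for stage, symbols for replicate number and a line at the mean of each group of 3. Baat and Nr1h4 at dpc16 lie below NP in zones 2 and 3, and the lowest Nr0b2 of each group belongs to replicate 3 in NP, replicate 1 at dpc8 and replicate 3 at dpc16.

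The conjugating enzymes were spread across the lobule. Slc27a5 (chr7:12988346-12998192, minus strand) was the most abundant of the 10 genes in NP zone 1, with 393 ± 145 FPKM (SD, n = 3), and had 387 ± 41.3 in zone 2 and 379 ± 72.4 in zone 3. Baat (chr4:49489422-49506557, minus strand) had 115 ± 34.4, 136 ± 15.9 and 133 ± 25.2 FPKM in the same zones. On the mean of the stages the log2 difference of zone 1 from zone 3 was 0.00 for Slc27a5 (95% confidence interval -0.44 to 0.44) and -0.12 for Baat (-0.60 to 0.37). Slc27a5 was nevertheless below zone 3 in every zone 1 library at dpc8 (196, 446 and 398 against 463, 535 and 465 FPKM) and above it in every zone 1 library at dpc16 (363, 335 and 481 against 312, 314 and 177). In those comparisons 10.5% of genes were lower and 8.36% higher without overlap, and neither difference of Slc27a5 passed.

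The nuclear receptors and the FGF15 receptor had no called zonation either. Nr1h4 (chr10:89454234-89533585, minus strand) had NP means of 54.9 ± 12.1, 69.7 ± 14.7 and 79.7 ± 16.4 FPKM in zones 1, 2 and 3. Its log2 difference of zone 1 from zone 3 on the mean of the stages was -0.37 ± 0.18 (limma adjusted p = 0.34), and -0.46 without the 6 libraries, where it passed (adjusted p = 0.022). Nr0b2 (chr4:133553376-133556536, plus strand) differed more between libraries of one group than between zones, with a zone difference of -0.49 ± 0.52. Fgfr4 (chr13:55152640-55168759, plus strand) had NP means of 13.5 ± 8.05, 15.4 ± 4.57 and 12.4 ± 4.22 FPKM, and Klb (chr5:65348314-65384007, plus strand) 19.2 ± 3.34, 21.1 ± 1.90 and 24.9 ± 3.77. Their zone differences were 0.06 ± 0.25 and -0.19 ± 0.23. The ligand gene Fgf15 was listed at 0 in all 27 libraries, and it is known to be made in the ileum rather than the liver.

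Pregnancy at day 8 was compared with NP to see whether the pathway had moved by midgestation. Limma called 0 of the 10 members in zones 1, 2 and 3 and on the mean of the zones, where 0.0309%, 0.00772%, 0.0154% and 0.108% of genes were called in either direction. At an unadjusted p under 0.05 there were 0 members in each zone and 1 on the mean of the zones, where 3.13%, 5.06%, 2.74% and 6.11% of all genes passed. That member was Cyp7b1, with a log2 difference of 0.86 ± 0.30 (adjusted p = 0.54). On the mean of the zones the 95% confidence interval ran from -0.83 to 0.98 for Cyp7a1. It ran from -0.25 to 0.59 for Cyp27a1 and from -0.31 to 0.45 for Nr1h4. Shifts inside these intervals are compatible with the values, and larger ones may also miss the adjusted threshold. In zone 3, Cyp8b1 (93.6, 162 and 113 against 83.4, 93.1 and 63.2 FPKM) and Slc27a5 (463, 535 and 465 against 417, 296 and 425) were above NP without overlap, as were 4.74% of genes.

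Pregnancy at day 16 was compared with both earlier groups. On the mean of the zones 5 of the 10 members fell against NP: Cyp7a1 3.63-fold, Cyp27a1 2.08-fold, Baat 1.99-fold, Fgfr4 1.74-fold and Nr1h4 1.73-fold. None rose, and 6.15% of the genes tested fell in this comparison. The comparisons with NP and with dpc8 share the dpc16 libraries, and both comparisons with NP share the NP libraries. Against dpc8, 4 members fell: Cyp7a1 3.82-fold, Cyp27a1 2.34-fold, Nr1h4 1.82-fold and Baat 1.66-fold, where 5.69% of genes fell. Libraries of one stage and number were also fitted as a block, because their deviations from the group means correlated between zones at dpc16. Such correlations do not show that these libraries share a mouse. With this block 4 members fell against NP (3.45% of genes) and 3 against dpc8 (3.03%). The calls lost were those of Fgfr4 against NP (limma adjusted p = 0.15) and of Baat against dpc8 (0.11).

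**Figure D3:**
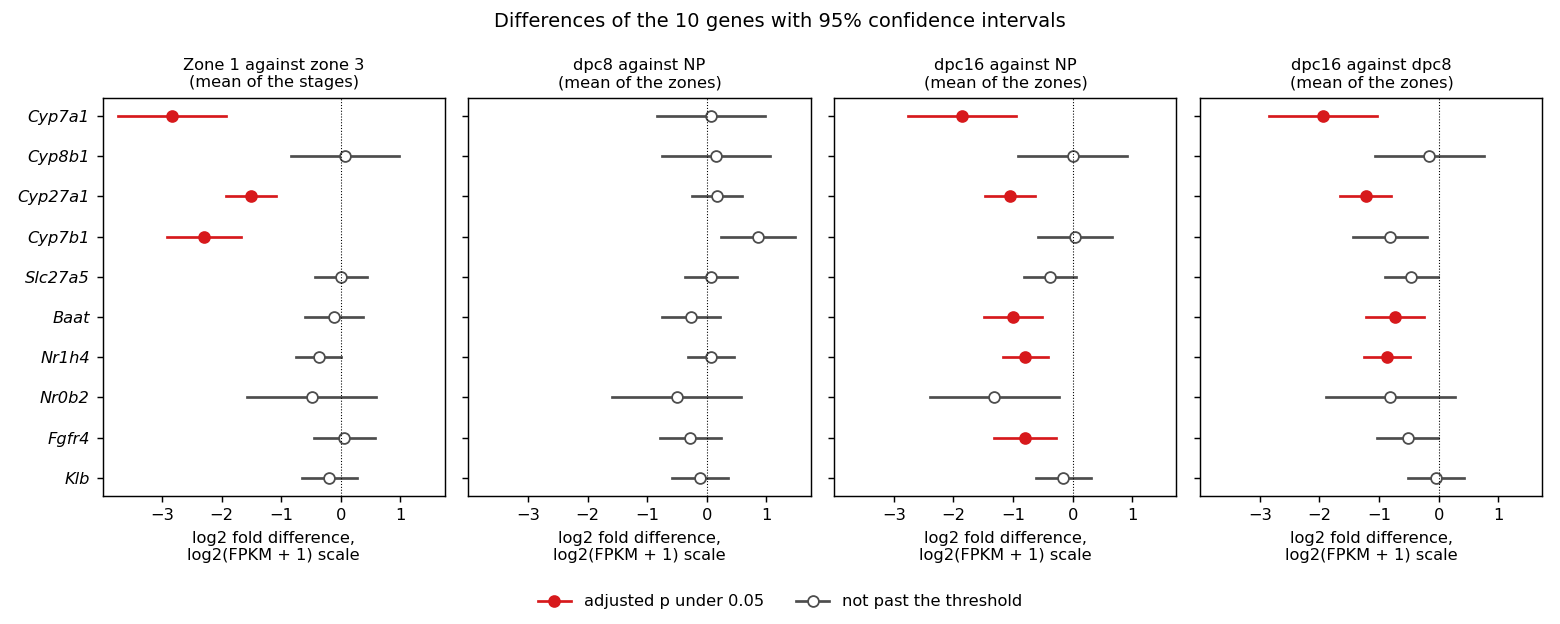
Log2 fold differences of the 10 genes on the log2(FPKM + 1) scale (horizontal axes) with 95% confidence intervals from limma, for zone 1 against zone 3 on the mean of the stages and for each pair of stages on the mean of the zones. Filled red points passed an adjusted p of 0.05: 3 genes for the zones, 0 for dpc8 against NP, 5 for dpc16 against NP and 4 for dpc16 against dpc8, of which Fgfr4 against NP and Baat against dpc8 did not pass with the replicate block within stage.

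Cyp7a1 ranged from 7.16 to 386 FPKM over the 9 NP libraries, with a median of 70.5, and from 1.35 to 59.2 over the 9 dpc16 libraries, with a median of 16.6. In zone 2 every dpc16 library was below every NP library, whereas zones 1 and 3 overlapped with NP. All 3 zones were below dpc8 without overlap. The log2 difference was -1.86 ± 0.44 against NP (limma adjusted p = 0.0064) and -1.93 ± 0.44 against dpc8 (adjusted p = 0.0053).

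Cyp27a1 stood out in zone 2, where the FPKM was 307, 275 and 245 in NP, 361, 196 and 324 at dpc8, and 116, 107 and 57.4 at dpc16. The dpc16 libraries were below both other stages without overlap, as were 5 of the 10 members against NP (9.59% of genes) and 4 against dpc8 (6.96%). This was the only call in a single zone, against NP (-1.61 ± 0.35, limma adjusted p = 0.012, where 1.64% of genes fell) and against dpc8 (-1.66 ± 0.35, adjusted p = 0.015, where 0.803% fell). Without dpc16 zone 2 replicate 3 the calls were lost (adjusted p = 0.068 against NP), as was the call against dpc8 without dpc8 zone 2 replicate 1 or 3 (0.058 to 0.099 over the 3 fits). In zone 2 the 7 pericentral genes summed to 3267 to 5609 FPKM in NP and 943 to 2020 at dpc16. At dpc8 they summed to 2428 to 4127. The part of this shift in the zone 2 fall was not tested. On the mean of the zones Cyp27a1 fell by 1.05 on the log2 scale against NP (SE 0.20, adjusted p = 0.0012) and by 1.23 against dpc8 (adjusted p = 0.00029).

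Baat, the last enzyme of conjugation, had 126, 128 and 154 FPKM in zone 2 of NP and 73.4, 80.5 and 28.7 at dpc16. In zone 3 it had 128, 110.0 and 159.8 in NP and 58.9, 71.7 and 42.3 at dpc16, and neither zone overlapped. Zone 1 did overlap. On the mean of the zones Baat fell by 0.996 on the log2 scale against NP (SE 0.23, limma adjusted p = 0.0064). Its partner Slc27a5, which acts one step earlier, had a difference of -0.38 ± 0.21 (adjusted p = 0.29).

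Nr1h4 (FXR) had 86.2, 58.0 and 64.7 FPKM in zone 2 of NP and 43.9, 40.6 and 17.4 at dpc16. In zone 3 it had 89.5, 60.8 and 88.8 in NP and 48.9, 47.0 and 26.0 at dpc16. The dpc16 libraries of both zones lay below the NP range, and zone 1 overlapped. On the mean of the zones the gene fell by 0.79 on the log2 scale against NP (SE 0.18, limma adjusted p = 0.0055) and by 0.87 against dpc8 (adjusted p = 0.0031).

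Fgfr4 had 13.4, 20.6 and 12.1 FPKM in zone 2 of NP and 7.46, 7.61 and 3.23 at dpc16, without overlap. Its fall on the mean of the zones passed by the narrowest margin of the 5 (-0.80 ± 0.25, limma adjusted p = 0.039, and 0.15 with the block). Klb, its co-receptor, had a difference of -0.16 with a 95% confidence interval from -0.62 to 0.31. Nr0b2 had -1.32 ± 0.52 against NP (adjusted p = 0.11, and -0.67 without the 6 libraries) and -0.81 ± 0.52 against dpc8 (adjusted p = 0.38), errors too wide to place it with the genes that fell or with those near 0.

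Cyp7b1 and Cyp8b1 did not pass at dpc16 on the mean of the zones, with log2 differences from NP of 0.04 (95% confidence interval -0.58 to 0.66) and of -0.00 (-0.91 to 0.91). In zone 1, the dpc16 values of Cyp8b1 (142, 152 and 107 FPKM) lay above those of NP (52.3, 96.4 and 42.1) and of dpc8 (27.8, 89.4 and 106) without overlap. These differences of 1.13 ± 0.76 and 1.03 ± 0.76 did not pass (limma adjusted p = 0.64 and 0.61), and 9.42% and 9.8% of all genes were higher without overlap in the same comparisons. Without the 6 libraries, 2 of which are the dpc16 libraries with the lowest Cyp8b1 (34.6 and 7.72 FPKM), the difference from NP on the mean of the zones was 0.69 (adjusted p = 0.055).

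In zones 1 and 3, limma called 0 of the 10 members against NP, where 1.37% and 1.32% of genes were called, and 0 against dpc8, where 2.01% and 1.37% were. At an unadjusted p under 0.05 there were 1 and 3 members against NP, where 11% and 11.5% of all genes passed, and 2 and 4 against dpc8, where 13.4% and 12.4% did. In zone 3, 4 of the 10 members were below NP without overlap (8.87% of genes) and 7 were below dpc8 (12.2%), while in zone 1 these counts were 0 (8.01%) and 1 (10.1%). The change from NP to dpc16 in zone 1 minus that in zone 3 was not called for any member, with 0 at an unadjusted p under 0.05 (3.16% of all genes) and 0.054% of genes called by limma. For dpc8 there were also 0 members at either level, with 2.36% of genes at the unadjusted p and 0% called. A difference between zones 1 and 3 in the response of these members was not detectable here, and no such contrast was fitted for zone 2.

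The dpc16 libraries also differed from the rest in makeup. The 6 hepatocyte markers summed to 46526 to 223753 FPKM at dpc16 and to 32180 to 97482 in NP. In zone 2 the 5 Kupffer cell markers summed to 37.2 to 156 at dpc16 and to 173 to 287 in NP. In zone 3 they summed to 24.2 to 45.6 at dpc16 and to 61.9 to 95.8 in NP, while zone 1 overlapped. The part of these differences in the falls was not tested. When the values were scaled to a fixed sum per library (TPM), the median of all genes shifted by -0.31 for dpc16 against NP and by -0.37 against dpc8, and 8 of the 10 members were then called lower in each comparison, where 23% and 26.2% of genes were. Without the 6 libraries with Y-linked FPKM the counts were 6 (8.05% of genes) and 5 (9.21%), with Slc27a5 added in both (-0.31, limma adjusted p = 0.043 against NP), and no member was called higher. With the block, Cyp7a1, Cyp27a1, Baat and Nr1h4 still passed against NP (limma adjusted p = 0.013 to 0.023). The Fgfr4 call was also lost without replicate 2 or 3 of zone 1, replicate 2 of zone 2 or replicate 1 of zone 3 in NP, and without replicate 1 or 2 of zone 1, replicate 3 of zone 2 or replicate 2 or 3 of zone 3 at dpc16 (0.056 to 0.094). The Baat call against dpc8 was lost in 13 of 18 such fits, and held only without replicate 1 of zone 1 or replicate 2 of zone 2 at dpc8, and without replicate 1 or 2 of zone 2 or replicate 2 of zone 3 at dpc16 (0.052 to 0.11 where lost).

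Cyp8b1 acts after Cyp7a1 in the classic pathway, so the ratio of Cyp8b1 to Cyp7a1 FPKM was taken within each library, where scaling cancels. In NP it ran from 0.164 to 7.30, and 6 of 9 libraries had more Cyp8b1 than Cyp7a1. At dpc8 it ran from 0.700 to 5.15, also above 1 in 6 of 9. At dpc16 it ran from 0.131 to 105 and was above 1 in 8 of 9, with 105, 67.8 and 8.29 in the zone 1 libraries. Cyp7a1 was 1.35, 2.24 and 12.9 FPKM in these libraries. Zone 1 also had the highest median ratio of the zones in NP (6.58) and at dpc8 (4.77). The lowest value at dpc16, in zone 3 replicate 3, came from a library that stood apart. The ratio compares levels per transcript length and does not measure protein or activity.

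**Figure D4:**
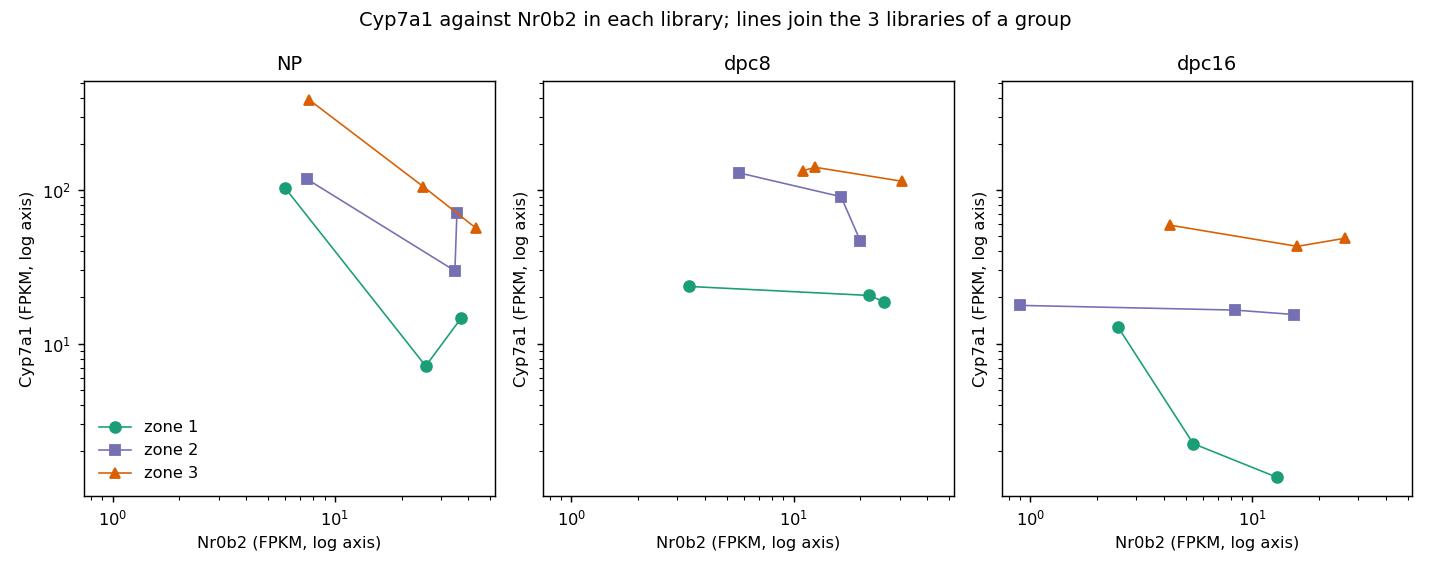
Cyp7a1 FPKM (vertical log axis) against Nr0b2 FPKM (horizontal log axis) in each library, 1 panel per stage, with lines joining the 3 libraries of each zone. In 8 of the 9 groups the point farthest to the left, with the lowest Nr0b2, is also the highest.

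The values of Nr0b2, the repressor SHP, and Cyp7a1 were also set beside each other library by library, a comparison chosen after the values had been seen. In NP the replicate 3 libraries had 5.98, 7.54 and 7.68 FPKM of Nr0b2 in zones 1, 2 and 3, against 25.0 to 43.3 in the other 6, and they had the highest Cyp7a1 of their groups (103, 117 and 386). At dpc8 replicate 1 had the lowest Nr0b2 in each zone (3.38, 5.66 and 11.04 FPKM), and at dpc16 replicate 3 did (2.48, 0.901 and 4.24). The library with the lowest Nr0b2 was thus of one number in all 3 zones at each of the 3 stages, which was so for 1.12% of genes and for no other member. In 8 of the 9 groups the library lowest in Nr0b2 was highest in Cyp7a1. Of all genes, 0.309% were highest there in at least 8 groups. The exception was zone 3 at dpc8, with Cyp7a1 at 134 in that library and 141 in replicate 3.

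Other members differed in this respect. Cyp7b1 was highest in the library with the lowest Nr0b2 in 7 of 9 groups and lowest in 2, and 1.54% of genes were highest there in at least 7. Cyp8b1 was lowest there in 7 of 9 groups and highest in 1, and 2.4% of genes were lowest there in at least 7. Cyp27a1 was highest in 3 and lowest in 4. The libraries of one number may come from one mouse, so the 9 groups are not 9 independent observations, and 3 of the 9 libraries lowest in Nr0b2 are among the 6 that stood apart. Over all 27 libraries, the genes whose log2(FPKM + 1) was most like that of Nr0b2 were Slc4a4, Nectin1 and Wwc1 (Pearson correlation 0.795, 0.774 and 0.767, as a description without a test). For Cyp7a1 they were Lect2, Rgn and Ociad2 (0.887, 0.887 and 0.881), for Cyp7b1 Rgn, Mup17 and Slco1a1 (0.868, 0.858 and 0.855), for Cyp27a1 Slc16a10, Sord and Acsm5 (0.936, 0.927 and 0.924), and for Cyp8b1 Crot, Gm4952 and Prxl2c (0.825, 0.804 and 0.789). These libraries share zone, stage and makeup.

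Of the other genes of the pathway, 13 of 14 listed transporters, all 15 listed enzymes and 17 of 19 listed regulators could be tested. Between zones 1 and 3 on the mean of the stages, where 2.89% of all genes were lower in zone 1 and 2.7% higher, 3 transporters were lower there. A call of Slc51b as higher carries no weight, since 7 of the 8 libraries through which it passed the filter are from zone 1, and it is left out here. Slco1a1 and Slco1b2, which take up organic anions from the blood, had log2 differences of -4.60 ± 0.45 and -2.58 ± 0.22 (limma adjusted p = 2.2e-07 and 1.4e-08), and Abcc4, an exporter, had a difference of -1.003 ± 0.27. Among the enzymes, Hsd3b7 was lower (-1.45 ± 0.35) and Cyp39a1, which hydroxylates an oxysterol, was higher by 1.01 ± 0.29. Among the regulators Nr1i3 was lower (-0.97 ± 0.24), and Fgfr2 (1.87 ± 0.24), Fgfr3 (1.29 ± 0.19) and Ppargc1a (0.97 ± 0.28) were higher. The calls of Cyp39a1 and Ppargc1a were lost under quantile normalization, and that of Ppargc1a also without the 6 libraries with Y-linked FPKM. Fgfr2 had 80.7 ± 14.2 FPKM in zone 1 at dpc16 and 12.8 ± 2.67 in zone 3 (SD, n = 3), where Fgfr4 had 10.6 ± 5.79 and 6.28 ± 1.67.

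In dpc16 against NP, where 6.15% of all genes tested fell, 4 of the 13 transporters fell and 0 rose: Abcc3, a basolateral exporter, with a log2 difference of -3.47 ± 0.30 (limma adjusted p = 4.6e-08), the uptake carriers Slco1b2 with -1.73 ± 0.22 and Slco1a4 with -1.504 ± 0.34, and Slc10a1, the sodium-dependent bile acid uptake carrier NTCP, with -1.38 ± 0.23. Abcc3 had group means of 69.2 to 91.5 FPKM in NP, 88.4 to 112 at dpc8 and 4.71 to 8.50 at dpc16. Slc10a1 had 362 to 382 in NP and 113 to 194 at dpc16. Of the enzymes 1 of 15 fell, a share close to that of all genes, and this call, of Hsd3b7 (-1.12 ± 0.35), was lost without the 6 libraries. Of the regulators 3 of 17 fell, Mafg (-0.94 ± 0.19), Ppargc1a (-0.88 ± 0.28) and Foxa2 (-0.77 ± 0.21), of which Ppargc1a and Foxa2 were lost under quantile normalization. The median log2 difference was -0.34 for the transporters, -0.04 for the enzymes and 0.07 for the regulators, beside -0.01 for all genes tested and -0.80 for the 10 members.

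Against dpc8, 6 of 13 transporters fell and 1 rose at dpc16, where 5.69% of all genes fell and 5.37% rose. The 6 include Slc51b, whose call carries no weight here either. It passed the filter through 8 libraries, of which 4 are from dpc8, 3 from NP and 1 from dpc16. Its call was also lost under quantile normalization. Abcc3 (-3.69 ± 0.30), Slco1a4 (-1.81 ± 0.34) and Slco1b2 (-1.73 ± 0.22) fell the most, and the canalicular export pump Abcb11 had -0.92 ± 0.26, a difference that was not called against NP. Atp8b1, a lipid flippase of the canalicular membrane, rose by 0.69 ± 0.21, a call lost on the TPM scale and under quantile normalization. Its group means were 14.8 to 18.1 FPKM in NP, 6.36 to 9.71 at dpc8 and 11.3 to 17.8 at dpc16, and its difference of dpc8 from NP was -1.01 ± 0.21 (limma adjusted p = 0.055). Of the 15 enzymes 1 fell, Cyp39a1 (-1.05 ± 0.29), a share close to that of all genes. Of the 17 regulators 2 fell, Mafg (-0.87 ± 0.19) and Foxa2 (-0.71 ± 0.21), and the Foxa2 call was lost under quantile normalization. All these calls are from limma at an adjusted p under 0.05.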

How the data were processed

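RNA of microdissected zones was depleted of ribosomal RNA and sequenced as single reads of 86 bases. After trimming (cutadapt) the authors mapped the reads to mm10 (HISAT2 2.1.0). Reads with a single position were used to estimate FPKM of protein-coding genes (Cufflinks 2.2.1, Cuffdiff), the deposited unit, in 1 table of 27 columns. The 10 genes and all lists were chosen with earlier results of these data known. Of the other pathway genes, up to 3 per direction were named by size of change in comparisons where a member passed, and the further called genes that are named were added after their values were seen.

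Tests were two-sided and used log2(FPKM + 1) in limma (3.58.1, R 4.3.3). This scale understates changes of weakly expressed genes. The model had 9 group means, trend and robust settings and 1 spread for all 27 libraries, with Benjamini-Hochberg adjustment over 12952 genes within each of 20 comparisons. Gene positions are from GENCODE vM21, which lists 21609 of the 21823 identifiers. The reported model has no block. For the block tried as an alternative, numbers were taken to pair libraries where the deviations of all pairs of zones correlated above 0.1. This held at dpc16 (9 of 9, from 0.26 to 0.86) and not at dpc8 (5 of 9) or NP (4 of 9). Between stages, where libraries cannot share a mouse, 11 of 27 pairs of one number and zone were also above 0.1 (highest 0.68). The block within stage took in every stage. Depth was read from steps of low values, of which 88.7% to 97.2% per library lay within 0.1 reads of a whole number. Alternatives were other scalings, a pseudocount of 0.1, no filter, only the groups compared, array weights, blocks, a connective tissue covariate, and fits without libraries.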

Additional observations from a re-analysis of the deposited data

How the results depend on the processing

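Of the 21 calls of a member in a comparison, 10 held in all other settings and in all fits that left out 1 library: Cyp7a1, Cyp27a1 and Cyp7b1 between zones 1 and 3 on the mean of the stages, Cyp7a1, Cyp27a1, Baat and Nr1h4 in dpc16 against NP, and Cyp7a1, Cyp27a1 and Nr1h4 in dpc16 against dpc8. No call turned its direction and no member was called higher in any setting. The other 11 are all 8 calls of a single zone or stage and, on means, those of Cyp7b1 between zones 1 and 2, Fgfr4 against NP and Baat against dpc8. The cause of the moves given next was not tested.

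Counts of called members moved as follows. On the TPM scale the count was 8 for dpc16 against NP and 8 for dpc16 against dpc8 on the mean of the zones (5 and 4 as reported), 4, 5 and 3 for dpc16 against NP in zones 1, 2 and 3 (0, 1 and 0 as reported), 3, 6 and 4 for dpc16 against dpc8 (0, 1 and 0), where the TPM scale called 5.06%, 8% and 4.05% of all genes lower against NP and 11%, 6.35% and 5.1% against dpc8, 3 for zone 1 against zone 2 (1, with 0.587% of genes lower) and 1 for zone 2 against zone 3 (0, with 1.38%). With array weights it was 7 for dpc16 against dpc8 on the mean of the zones (13.5% of genes lower), 1, 3 and 3 in zones 1, 2 and 3 against NP, 2, 3 and 4 against dpc8 (1.94% to 4.06% and 3.52% to 6.11% of all genes lower), 3 for zone 1 against zone 2 (0.772%) and 1 for zone 2 against zone 3 (2.37%). With the connective tissue covariate it was 1, 3 and 3 against NP, 1, 4 and 3 against dpc8 (1.09% to 3.41% and 1.51% to 3.43% of all genes lower), 3 for zone 1 against zone 2 (0.556%) and 1 for zone 2 against zone 3 (1.83%). With only the groups compared it was 0 for zone 1 against zone 3 in NP (2 as reported), 1 at dpc16 (2, with 0.587% of genes lower), 0 for zone 1 against zone 2, 0 in zone 2 for dpc16 against NP and against dpc8, and 2 in zone 3 against dpc8 (0.703%). Under quantile normalization it was 1 for zone 1 against zone 3 at dpc16 (0.71%), 2 for zone 1 against zone 2 (0.401%) and 2 in zone 2 for dpc16 against NP (1.69%). Without the 6 libraries with Y-linked FPKM it was 1 for zone 1 against zone 3 in NP (0.896%), 2 for zone 1 against zone 2 (0.61%), 1 for zone 2 against zone 3 (1.54%), 2 and 3 in zones 2 and 3 for dpc16 against NP, and 1, 2 and 4 in the 3 zones against dpc8 (1.6% to 1.89% and 1.81% to 2.03% of all genes lower).

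With the replicate number as a block the count was 2 for zone 1 against zone 2 (0.456% of genes lower) and 1 in zone 3 for dpc16 against dpc8 (1.07%), and with the block within stage it was 2 for zone 1 against zone 2 (0.726%) and 2 for zone 2 against zone 3 (1.89%). The calls gained under a block were those of Cyp7a1 for zone 1 against zone 3 in NP (limma adjusted p = 0.044 with the number and 0.0020 within stage, 0.16 as reported) and at dpc8 (0.031 and 0.0015, 0.10 as reported), of Cyp7a1 for zone 1 against zone 2 (0.013 and 0.00048), of Cyp7a1 and Cyp7b1 for zone 2 against zone 3 within stage (0.017 and 0.0050), and of Nr1h4 in zone 3 for dpc16 against dpc8 with the number (0.048). The calls lost were those of Fgfr4 and Baat given above, and no other call of a member changed. In NP and at dpc8 the check of the pairing did not hold.

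Single calls lost with only the groups compared were those of Cyp27a1 in NP (limma adjusted p = 0.17), Cyp7b1 in NP (0.12) and at dpc8 (0.066) and Cyp7a1 at dpc16 (0.052) between zones 1 and 3, Cyp7b1 between zones 1 and 2 (0.068), Cyp27a1 in zone 2 for dpc16 against NP (0.21) and against dpc8 (0.41), and on the mean of the zones Fgfr4 against NP (0.055) and Baat against dpc8 (0.087). Fgfr4 against NP was also lost under quantile normalization (0.088) and with no filter on low values (0.054), and Baat against dpc8 with no filter (0.064).

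Leaving out 1 library gave 0 to 3 calls for zone 1 against zone 3 in NP, 0 to 1 at dpc8, 0 to 3 at dpc16, 0 to 3 for zone 1 against zone 2, 0 to 2 in zone 2 for dpc16 against NP and 0 to 2 against dpc8, 4 to 5 for dpc16 against NP and 3 to 5 for dpc16 against dpc8 on the mean of the zones, and the reported count in the other 12 comparisons. The TPM scale called 3249 genes for dpc16 against NP where 1529 were called as reported, 23% of the tested genes as lower against 6.15%, and 3641 in place of 1432 against dpc8. With array weights the totals were 2901 and 3527, with the covariate 2488 and 2426, and with the block within stage 881 and 801. For zone 1 against zone 3 on the mean of the stages, array weights called 1450 and the covariate 1130 in place of 724.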
